A study of Mus musculus with 92 samples.

Results

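The 20 cells described here are the single bone marrow cells that were sorted with CD11b on their surface, in the gate the labels call CD11b+ GMP-P, and that the authors' annotation names Gran-2. The 2 sides were chosen by the measured transcript level of Itgam, the gene for CD11b itself: 12 cells held Itgam above 1 TPM (a transcript level corrected for gene length and for the library's total) and 8 held it at or below 1 TPM. The 20 are part of 92 cells in the series, 47 from this gate and 45 from a gate called GMP, a name commonly used for granulocyte-monocyte progenitors. The Itgam value chose both sides, so its own difference between them is the rule and not a result.

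All 92 cells carried the same genotype and strain, homozygous Gfi1-R412X on C57BL/6. Gfi1 encodes a zinc finger repressor that acts in granulocyte development, and the series has 0 wild type cells, so nothing here bears on the mutation. Each cell was captured on a Fluidigm C1 chip after enrichment on CD117 beads and sorting. The 20 cells share 1 gate and 1 date code, and 0 animals are named in the labels. They were therefore taken as 1 library without a replicate, cells were not counted as replicates, and no p-value was computed. An SD given here describes how cells vary and says nothing of error between animals.

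CD11b is the alpha chain of the integrin Mac-1 and reaches the cell surface as a pair with the beta chain CD18, the product of Itgb2. In neutrophils the complete integrin is stored in granules and vesicles, brought to the surface when the cell is activated, and switched to its binding form from inside the cell by talin and kindlin. Granules are made in waves during maturation, first primary granules with elastase and myeloperoxidase, then specific and gelatinase granules. A protein can outlast its transcript, and a transcript can be missed in a single cell, so a cell sorted on CD11b need not yield Itgam reads.

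The region around the start of Itgam is shown because GAGGAA is a core recognised by PU.1, the factor encoded by Spi1, which is known to act at this gene, and because Spi1 is among the genes compared below. The sequence is RefSeq's for GRCm38.p6, a later build than the authors' mm9, at chr7:128062390-128062689 on the plus strand. Capitals mark GAGGAA or its reverse complement TTCCTC.
Itgam promoter: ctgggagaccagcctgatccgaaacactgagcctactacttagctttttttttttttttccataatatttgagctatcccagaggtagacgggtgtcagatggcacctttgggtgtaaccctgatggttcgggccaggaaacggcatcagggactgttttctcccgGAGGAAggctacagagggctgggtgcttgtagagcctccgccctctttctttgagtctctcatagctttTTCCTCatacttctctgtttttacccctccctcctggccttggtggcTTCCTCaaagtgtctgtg
Counted from the annotated start, the 3 matches lie at -84, -15 and 33, the first in the forward orientation and the others in the reverse. Of 32851 promoter windows of this length, 28.3% hold at least 1 match on either strand and 0.685% hold at least 3. These matches are letters in a window, and no binding was measured here.

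Itgam values formed no clear gap in the 20 cells. In 7 cells Itgam was 0, and the cell just outside the positive side, cell 55, held 0.97 TPM. The cells just inside it held 2.54, 3.12 and 3.24 TPM (cells 76, 89 and 65). The 9 others held 11.89, 20.22, 44.35, 51.56, 57.74, 79.39, 132.95, 174.12 and 318.55 TPM, the last in cell 71.

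Across the gate, Itgam was missed in some cells of Gran-1 and Gran-2 and found in all cells of the Myelo states. Above 1 TPM were 2 of 4 Gran-1 cells (interval 6.76 to 93.2), 12 of 20 Gran-2 cells (60%, interval 36.1 to 80.9), 3 of 3 Myelo-1 cells, 15 of 15 Myelo-2 cells (interval 78.2 to 100) and 3 of 3 Myelo-4 cells. Intervals are exact Clopper-Pearson 95% intervals and cover counting error only. Gran-1 and Gran-2 cannot be put in order from these shares, since Gran-1 had the higher share above 0 TPM (75% against 65%) and above 10 TPM (50% against 45%). The median level was 9.56 TPM in Gran-1, 3.18 TPM in Gran-2, 91.9 TPM in Myelo-2 and 304 TPM in Myelo-4. The median of genes detected was 5263.5 in Gran-1, 4595 in Gran-2, 4428 in Myelo-1, 2936 in Myelo-2 and 2192 in Myelo-4. The part of genes detected in these shares was not tested. In the GMP gate 5 of 24 Mono cells (20.8%, interval 7.13 to 42.2) and 1 of 6 Gran-1 cells held Itgam above 1 TPM. The GMP cells carry another date code than the CD11b+ GMP-P cells, so gate and date code cannot be told apart.

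**Figure D1:**
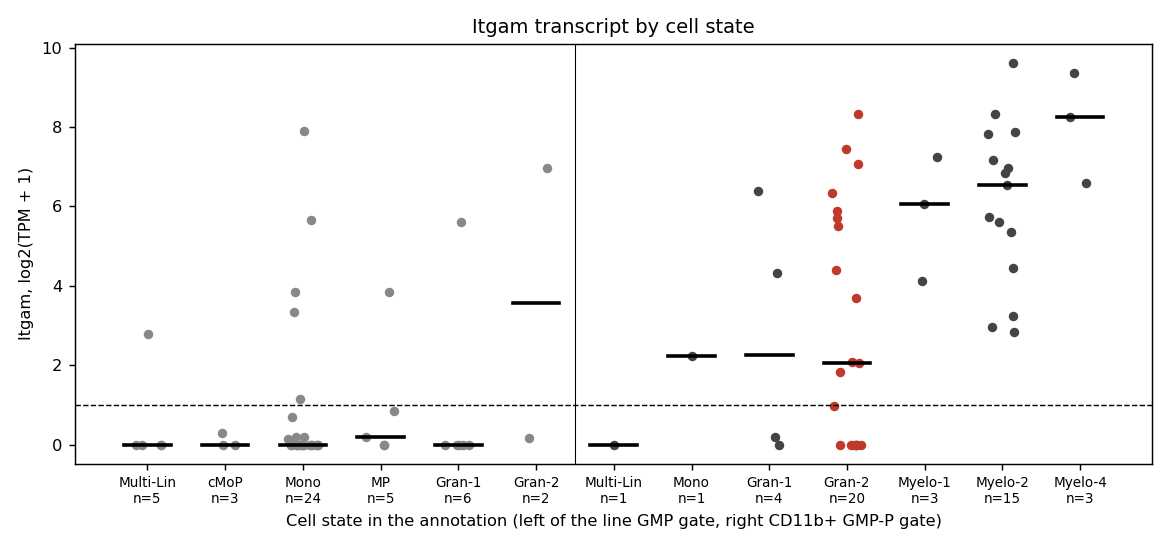
Itgam level of each of the 92 cells on the log2(TPM + 1) scale, by state and gate, with n under each state. Points are cells, spread sideways for sight only; thick lines are medians, the dashed line is the 1 TPM threshold, and red points are the 20 Gran-2 cells described here. Gran-2 cells run from 0 to 318.55 TPM, while all 15 Myelo-2 cells lie at 6.13 TPM or above.

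Granulocyte markers were found on both sides, beside some genes of other lineages. Elane, Mpo, Prtn3, Ctsg, S100a8, S100a9 and Fcnb were above 1 TPM in all 20 cells, and Cebpe, a factor that drives late granule genes, in 19. Several defining markers of other lineages were at 0 in all 20 cells: globin genes and Gata1 (erythroid), Pf4 and Itga2b (megakaryocyte), Cd79a and Pax5 (B cell), Cd3e and Cd4 (T cell), and Epx (eosinophil). Other members of those lists were found. Cd79b was above 1 TPM in 2 cells of each side (up to 125 TPM), Fli1 in all 20, Lck in 4 of 12 and 2 of 8, Blvrb in 4 of 12 and 1 of 8, and Nkg7, at 365 to 9612 TPM, in all 20. The 17 basophil and mast cell genes summed to 1366 to 7530 TPM on the positive side and 2907 to 10074 TPM on the other; Hdc and Srgn were above 1 TPM in all 20 cells, and Fcer1a and Cma1 were at 0 in all. The summed level of the 26 monocyte genes ran from 1841 to 19475 TPM (median 8952) on the positive side and from 3007 to 14920 TPM (median 7195) on the other, with Fcgr1 and Slamf9 at 0 in all 20. Of the 26, 19 were above 1 TPM in at least 1 of the 12 positive cells and 11 in at least 1 of the 8 others. Such counts grow with the number of cells and of genes detected, so they do not compare the sides. The 18 dendritic cell genes summed to 0.29 to 965 TPM (median 50.4) on the positive side and 10.8 to 708 TPM (median 109) on the other. Irf8, a factor of the monocyte and dendritic lineages, was above 1 TPM in 1 cell of each side, at 292 TPM in cell 62 and at 14.48 TPM in cell 57. Cell 62 also held Csf1r at 65.62 TPM and Lgals3, of the monocyte list, at 386 TPM. Its Gfi1 was 0.35 TPM and its Camp 1.91 TPM, while its Elane was 29200 TPM. Of 18 housekeeping genes, 12 were above 1 TPM in all 20 cells.

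Read depth cannot be read from TPM, and the count of genes above 0 TPM was used in its place; it differed between the sides. Itgam-positive cells had 3815 to 5743 genes detected (median 4969.5) and Itgam-negative cells 2629 to 5543 (median 4472.5). The ranges overlap over most of their length, and the 2 lowest cells of all, cell 92 with 2629 and cell 87 with 3131, are both Itgam-negative. The difference of the medians was 497 genes. Over the 20 cells, Spearman's rank correlation of Itgam with genes detected was 0.31.

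**Figure D2:**
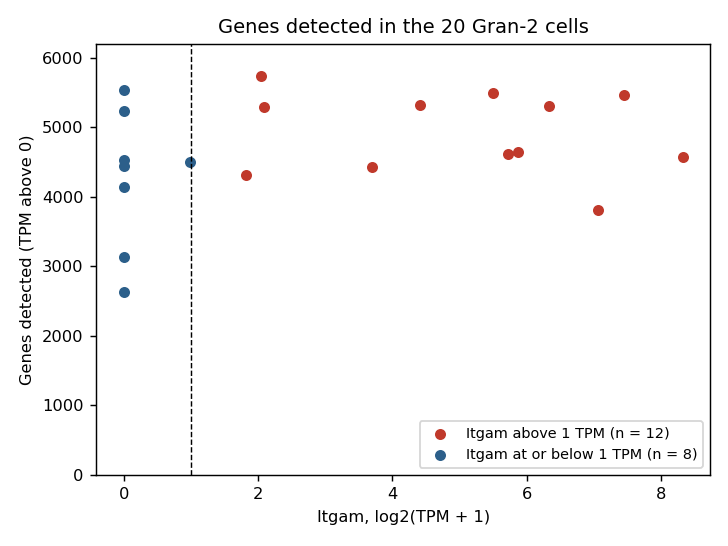
Number of genes with TPM above 0 against Itgam on the log2(TPM + 1) scale, 1 point per cell, for the 12 Itgam-positive (red) and 8 Itgam-negative (blue) Gran-2 cells; the dashed line is the 1 TPM threshold. The positive cells lie between 3815 and 5743 genes, and cells 92 and 87, at 2629 and 3131 genes, stand lowest.

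Of 23956 genes, 8339 were above 0 TPM in 25% or more of the cells on 1 side or both and were compared as the difference of mean log2(TPM + 1), Itgam-positive minus Itgam-negative. This scale understates the change of low genes. At least 2-fold higher in Itgam-positive cells were 1880 genes (22.5%) and at least 2-fold lower 904 (10.8%), with a median over all genes of 0.23. These percentages are the background for each count over all 20 cells below. In 6 pairs of cells matched on genes detected, 7912 genes were compared. Of these 1640 were higher and 1779 lower, with a median of -0.05. Without cells 87 and 92, 8197 genes were compared, 1560 higher and 1375 lower, with a median of 0.07. Counts given below for either setting have these numbers as their background and not the 22.5% and 10.8%. In both settings the counts of higher and lower genes were more nearly even, and the part of genes detected in the excess over all 20 cells was not tested. Of the 8339 genes, 0 had every Itgam-positive cell above, or every one below, all Itgam-negative cells.

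Primary granule genes stood at about the same level on both sides. Elane, neutrophil elastase, ran from 15871 to 54245 TPM (median 33310.4) in Itgam-positive cells and from 21746 to 46962 TPM (median 40007) in the others. On the log2(TPM + 1) scale its means differed by -0.18, with SDs of 0.57 (n = 12) and 0.39 (n = 8). Mpo, myeloperoxidase, Prtn3, proteinase 3, and Ctsg, cathepsin G, differed by -0.38, -0.25 and -0.39. All of these differences are smaller than the spread of cells within a side, and the values overlap throughout. Of 19 primary granule genes compared (of 21 in the table), 5 were at least 2-fold higher, 0 were at least 2-fold lower and the median was -0.24, with 12 of 19 below 0 against 39.8% of all genes.

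The 5 primary granule genes past 2-fold were the lysozymes Lyz2 and Lyz1, Hexa, a lysosomal hexosaminidase subunit, Fcnb, a ficolin, and Ctsd, the lysosomal protease cathepsin D. Lyz2 held 2.96 to 6776 TPM (median 1172) in Itgam-positive cells and 4.54 to 1551 TPM (median 117) in the others, and differed by 2.32. Lyz1 held 0.48 to 910 TPM (median 98.2) against 0.95 to 110 TPM (median 12.9), a difference of 2.12. The pair are near-identical paralogs whose reads can be shared, so they are not separate observations. Fcnb differed by 1.23, from 985 to 7949 TPM (median 2836) against 66.3 to 6984 TPM (median 2144). In Fcnb the 2 low cells were Itgam-negative, cell 86 with 66.31 TPM and cell 87 with 102.06 TPM.

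Specific granule genes, made later, overlapped between the sides. Of 16 compared, 4 were at least 2-fold higher, 0 lower, and the median was 0.37 against 0.23 for all genes. The rank correlation with Itgam of the cell mean of all 24 specific granule genes measured was 0.56. It was 0.33 for the primary and -0.01 for the gelatinase granule and secretory vesicle list. Taken singly, 13 specific granule genes ranked had values from -0.33 to 0.53, with a median of 0.12. Lcn2, a siderophore-binding protein, held 771 to 7942 TPM (median 4961) in Itgam-positive cells and 810 to 7846 TPM (median 3155) in the others, a difference of 0.42. Camp, the cathelicidin, and Ngp, a granule protein, differed by -0.36 and -0.62. Camp spread from 1.91 to 34670 TPM over the positive cells and from 8.15 to 20785 TPM over the others. Ltf, lactoferrin, was above 1 TPM in 1 of 12 and 2 of 8 cells.

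The 4 specific granule genes past 2-fold were Chil3, a chitinase-like protein, Cybb, the large subunit of the phagocyte NADPH oxidase, Cd177, a neutrophil surface glycoprotein, and Slpi, a protease inhibitor. Chil3 had a lower median in Itgam-positive cells (7996 TPM, range 2434 to 17810) than in the others (8226 TPM, range 1.92 to 18805). Its mean difference of 2.01 rested on cell 92, at 1.92 TPM, and cell 86, at 265 TPM. Leaving out 1 cell at a time moved it between 0.64 and 2.45. Cybb, at 12.3 to 397 TPM (median 116) against 0.11 to 642 TPM (median 98.1), differed by 1.54 on the log2 scale, while the log2 ratio of its mean TPM was -0.066.

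Gelatinase granule and secretory vesicle genes, the compartments in which stored CD11b lies nearest the surface, had a median of -0.01 over 7 compared. Fcnb and Fcgr4, an Fc receptor, were the 2 past 2-fold, and 0 were lower. The Fcgr4 difference of 1.54 was -0.79 with the Itgam threshold at 10 TPM. Cxcr2, a chemokine receptor, was above 1 TPM in all 20 cells with medians of 21.05 and 22.0 TPM. All granule list genes with S100a8 and S100a9 took 12.2% to 34.5% of TPM (median 25.97%) in Itgam-positive cells and 15.2% to 26.98% (median 24.8%) in the others. Neither the shares nor the list medians separated the sides.

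**Figure D3:**
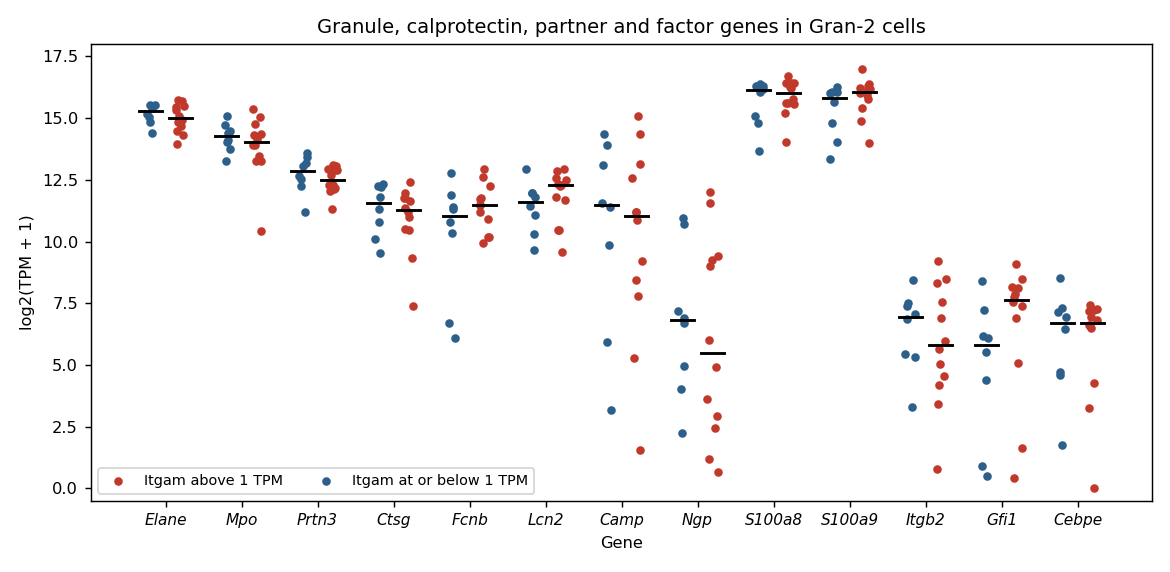
Levels of 13 genes on the log2(TPM + 1) scale in the 12 Itgam-positive (red) and 8 Itgam-negative (blue) Gran-2 cells; each point is a cell, spread sideways for sight only, and black lines are medians. For every gene drawn the 2 sides overlap; Camp and Ngp span the widest ranges on both sides.

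Transcript for the beta chain was found also where Itgam transcript was at or below 1 TPM, in cells all sorted on CD11b protein. Itgb2 was above 1 TPM in 8 of 8 Itgam-negative cells (8.75 to 343 TPM, median 124) and in 11 of 12 Itgam-positive cells (0.71 to 589 TPM, median 55.4). The difference of -0.58 is smaller than the SDs of 1.64 and 2.43. The exception was cell 66, with Itgam at 51.56 TPM and Itgb2 at 0.71 TPM. The rank correlation of Itgb2 with Itgam was 0.13.

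Itgax and Itgal, for other alpha chains that pair with CD18, were above 1 TPM in a minority of cells or none on either side. Whether either stands in for Itgam was not tested. Itgax, for CD11c, was 0 in all 20 cells. Itgal, for CD11a of the lymphocyte integrin LFA-1, was above 1 TPM in 2 of 8 Itgam-negative cells (cell 51, 24.8 TPM, and cell 87, 9.04 TPM) and in 5 of 12 Itgam-positive cells, at 1.19 to 125 TPM, a difference of 1.20. Itga4, which pairs with other beta chains, was above 1 TPM in 3 of 8 and 5 of 12 and differed by 1.31. Leaving out 1 cell at a time brought Itgal to 0.78 and Itga4 to 0.97 at the lowest.

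Genes that act with or behind the integrin were on average higher in Itgam-positive cells, and how far depended on the cells compared. Of 18 genes for partners and activation, 8 were at least 2-fold higher and 1, Rasgrp2, an activator of Rap1, was lower, with a median of 0.46. In matched cells 4 of 17 were higher and 4 lower, with a median of 0.06, while without cells 87 and 92 it was 6 of 18 higher and 1 lower with a median of 0.42. Tln1, for talin, held 0.98 to 190 TPM (median 63.2) against 0 to 40.7 TPM (median 1.13) and differed by 3.05. The kinase Syk, which signals from the bound integrin, differed by 2.16. The rank correlation of Tln1 and Syk with genes detected was 0.48 and 0.43, above theirs with Itgam of 0.38 and 0.31. Within the 12 positive cells the rank correlation of Tln1 with Itgam was -0.58. The part of genes detected in these differences was not tested.

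Among 12 genes of adhesion and chemotaxis 4 were higher (Cd177, Ceacam1, C5ar1 and Ltb4r1) and 1, Vcam1, was lower with a difference of -2.09, with a median of 0.83. Ceacam1, an adhesion molecule, held a median of 10.3 TPM against 6.57 TPM; its difference of 1.99 became -0.65 with the threshold at 10 TPM of Itgam. Of 7 NADPH oxidase genes 2 were higher, Cybb and Ncf1, a cytosolic subunit (medians of 205 and 44.2 TPM, difference 1.69). Calprotectin genes were high on both sides: S100a9 held 16066 to 128118 TPM (median 67615) against 10390.3 to 77318 TPM (median 58589), a difference of 0.57, and S100a8 differed by 0.26.

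Transcription factors of the lineage overlapped between the sides. Gfi1, the mutated gene, was above 1 TPM in 11 of 12 Itgam-positive cells (0.35 to 545 TPM, median 199) and 6 of 8 others (0.43 to 337 TPM, median 56.4), a difference of 1.62. Spi1, for PU.1, held 0 to 114 TPM (median 3.64) in Itgam-positive and 0 to 226 TPM (median 39.7) in Itgam-negative cells and differed by -1.59. At an Itgam threshold of 10 TPM that difference was 0.0057, and within the 12 positive cells the rank correlation of Spi1 with Itgam was 0.46. Cebpe was alike, with medians of 104 and 105 TPM. Of 24 factors 4 were higher (Gfi1, Ets1, Foxp1 and Myc), 3 were lower (Spi1, Myb and Klf5), and the median was 0.17, or -0.41 in matched cells.

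Genes of early progenitors stood lower in Itgam-positive cells as a list. In the stem and multipotent progenitor list, 0 of 12 genes were past 2-fold in the higher direction and 3 in the lower: Bcl11a, a transcription factor (-1.88), Cd48, a surface protein (-1.43), and Myb, a progenitor factor (-1.19). Cd48 was at 0.59 with the Itgam threshold at 10 TPM. The list's median of -0.59 was -0.80 both in matched cells and without cells 87 and 92, -0.23 with a pseudocount of 10, -0.34 without cell 57 and -0.14 without cell 86. Myb held 6.98 to 197 TPM (median 61.2) against 14.3 to 365 TPM (median 226), and its lowest value was in cell 71, the cell with the most Itgam. Of the lineage factors ranked, Myb was the one most nearly opposite to Itgam, with a rank correlation of -0.57, and -0.69 within the 12 positive cells. Kit, whose product CD117 was used for enrichment, did not follow Itgam: 6 cells held both above 1 TPM, 6 Itgam alone, 4 Kit alone and 4 neither.

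Most ribosomal protein genes stood slightly lower in Itgam-positive cells. Of 64 compared, 51 were below 0 (79.7%, against 39.8% of all genes) with a median of -0.33, while 0 were at least 2-fold higher and 2, Rps27 and Rps2, were at least 2-fold lower. In matched cells 57 of 64 were below 0 and without cells 87 and 92 it was 60. The list's median lay between -0.59 and -0.25 over all alternatives, each cell left out in turn included. Together they took 7.59% to 11.2% of TPM (median 9.10%) in Itgam-positive cells and 9.58% to 12.6% (median 11.2%) in Itgam-negative cells. The 5 cells with the most Itgam, 57.74 TPM and above, all held 8.91% or less. The rank correlation of the cell mean of these genes was -0.59 with Itgam and 0.08 with genes detected. Ribosomal protein genes have many pseudogenes that can share their reads.

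The gene ranked most nearly opposite to Itgam was one of them. Rpl15 held 213 to 770 TPM (median 401) in Itgam-positive and 545 to 1247 TPM (median 785) in Itgam-negative cells, with means of 8.69 ± 0.51 (SD, n = 12) and 9.62 ± 0.42 (SD, n = 8), a difference of -0.92. The rank correlation with Itgam was -0.83 over the 20 cells and -0.69 within the 12 positive cells. In the 15 Myelo-2 cells, which the rule did not use, it was 0.05. Next were Tpt1, which encodes a translationally controlled growth protein (-0.79), Bdp1, a subunit of an RNA polymerase III initiation factor (-0.73), Rpl10a (-0.71) and Alkbh5, an RNA demethylase (-0.70). Tpt1 held 60.3 to 1300.0 TPM (median 771) against 1148 to 1957 TPM (median 1572). These 5 are the extreme of 4357 genes ranked, whose median rank correlation was 0.04, and they share 1 library.

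Ranked most like Itgam were Atp13a3, a cation-transporting ATPase (rank correlation 0.80), Polr2b, an RNA polymerase II subunit (0.73), Tbpl1, a TBP-like factor (0.71), Lyz1 (0.71), 0610010B08Rik (0.70), Acaa1a, a peroxisomal thiolase (0.68), Bub1, a spindle checkpoint kinase (0.67), Tor1a, an ATPase of the ER lumen, Rfc1, a clamp loader subunit, and Krcc1 (0.66 each). In Myelo-2 cells the same measure gave 0.54 for Lyz1, 0.52 for Tor1a, 0.47 for Atp13a3 and 0.46 for Rfc1. The 6 others were lower there, with 0.22 for Tbpl1, 0.18 for Krcc1, 0.16 for Acaa1a, 0.09 for Polr2b, 0.03 for 0610010B08Rik and -0.48 for Bub1. Atp13a3 was at 0.08 TPM or less in all 8 Itgam-negative cells and above 1 TPM in 7 of 12 positive cells. The 10 genes are the other extreme of the 4357 ranked, so the split of Atp13a3 follows from how it was picked.

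Within the 12 positive cells alone, some granule genes ordered with Itgam in opposite directions. The rank correlation was 0.80 for Lcn2, 0.75 for Fcnb, 0.72 for Lyz1 and 0.62 for both Lyz2 and S100a9, and it was -0.69 for Ctsg, -0.54 for Elane and -0.37 for Mpo. Lyz1 and Lyz2 are not separate observations. Between these lay 0.57 for S100a8, 0.51 for Cybb, 0.49 for Mmp8, 0.46 for Chil3 and 0.27 for Hexa, and -0.40 for Fcgr4. Weaker values were 0.24 for Cd177, 0.23 for Camp, 0.19 for Ngp and -0.25 for Ltf, Prtn3 and Cxcr2. Cell 71 stands at the end of both orders, with 7949 TPM of Fcnb and 910 TPM of Lyz1, the highest of the 20, and with 168 TPM of Ctsg and 15871 TPM of Elane, the lowest. Its Mpo, 1382 TPM, was also the lowest. These rank values were not computed without cell 71, nor for all genes within the 12 cells. They carry no p, and the 12 cells share 1 library.

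**Figure D4:**
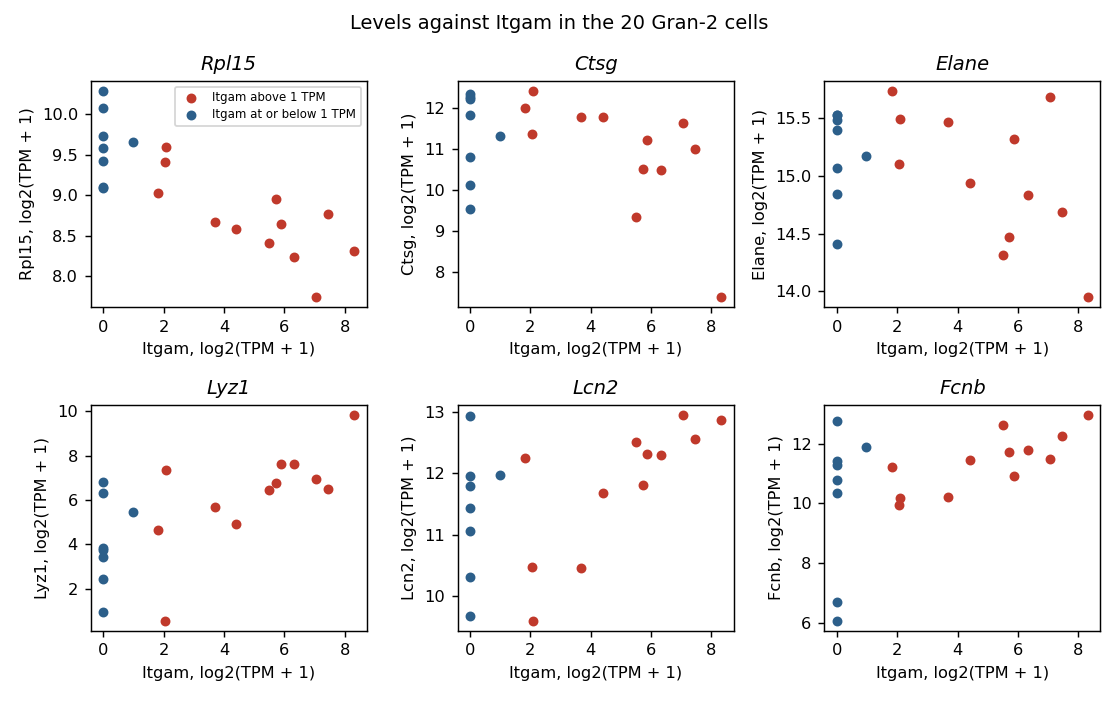
Levels of 6 genes against Itgam, both on the log2(TPM + 1) scale, in the 12 Itgam-positive (red) and 8 Itgam-negative (blue) Gran-2 cells; each point is a cell and vertical axes differ between panels and do not start at 0. Rpl15 lies lower where Itgam is higher (rank correlation -0.83 over 20 cells), and within the positive cells Lcn2 and Fcnb lie higher and Ctsg lower with more Itgam.

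The levels of both sides can be set beside the other states of the gate. The median share of TPM of ribosomal protein genes was 10.6% in 4 Gran-1 cells, 11.2% in Itgam-negative and 9.10% in Itgam-positive Gran-2 cells, 7.13% in 3 Myelo-1 cells and 2.20% in 15 Myelo-2 cells. Lyz1 had medians of 5.76, 12.9, 98.2, 281 and 1564 TPM in the same order, and Lcn2 1557, 3155, 4961, 5391 and 15725 TPM. Ctsg ran the other way, with 5426, 3073, 2499, 510 and 0.49 TPM. Camp did not follow this order between the 2 sides, with 11.9, 2864, 2099, 22658 and 67885 TPM. The ribosomal share did not fall at every step, being higher in Itgam-negative Gran-2 than in Gran-1 cells. Neighbouring groups overlap in all of these values except Myelo-1 and Myelo-2, which are apart in the ribosomal share and in Lcn2. Lyz1, Lcn2, Ctsg and the ribosomal protein genes were shown above to order with Itgam in these same cells. Their step between the 2 sides is therefore not a separate observation. Ngp, S100a8 and Chil3 also had lower medians in Itgam-positive than in Itgam-negative cells (46.95 and 111, 66384 and 71171, 7996 and 8226 TPM). Those of S100a9, Fcnb, Lyz2 and Cd177 were higher. The state names are the annotation's, and the sources used here do not say how it was made.

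Mitosis genes were higher in Itgam-positive cells over all 20 cells but not in matched cells. Of 32 mitosis genes 14 were at least 2-fold higher in Itgam-positive cells and 0 lower, with a median of 0.91, but in matched cells 8 were higher and 10 lower with a median of -0.39. Without cells 87 and 92, 13 were higher and 2 lower with a median of 0.76. A cell held 6 to 30 of these genes above 1 TPM (median 27) on the positive side and 4 to 27 (median 16.5) on the other. The rank correlation of their cell mean was 0.78 with genes detected and 0.39 with Itgam. Kif20a, a mitotic kinesin, differed by 3.61, Ckap2l, a spindle protein, by 3.20 and Bub1 by 2.85. DNA replication genes stood near the background, with 11 of 34 higher, 1 lower and a median of 0.24 (0.36 in matched cells), and Rfc1 (3.07) differed most.

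The other lists are given by their counts and medians. Ribosome biogenesis had 7 of 25 higher and 6 lower with a median of 0.65 that was -0.39 in matched cells. ER chaperone and secretory folding genes had 7 of 24 higher and 2 lower (median 0.20, and -0.21 in matched cells), with Pdia4, a disulfide isomerase, at 3.41 and Herpud1, a component of ER-associated degradation, at -4.04. Oxidative phosphorylation genes had 6 of 26 higher and 0 lower (median 0.15, and -0.23 in matched cells). Immediate early and stress genes had 0 of 18 higher and 3 lower (median -0.18), interferon response genes 4 of 9 higher and 1 lower (median 0.81), and cytokine receptors 4 of 16 higher and 2 lower (median 0.54). S100 and annexin genes had 4 of 13 higher and 1 lower (median 0.41), and known Gfi1 targets 3 of 16 higher and 2 lower (median -0.14). Genes of the sort gate had 1 of 10 higher and 0 lower (median 0.20), and housekeeping genes 3 of 18 higher and 1 lower (median -0.08). Dendritic cell genes had 1 of 9 higher and 1 lower (median -0.26), and 0 of 5 basophil and mast cell genes were past 2-fold either way (median -0.25). Monocyte genes had 5 of 12 higher and 1 lower, with a median of 0.71 that was 0.24 in matched cells.

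**Figure D5:**
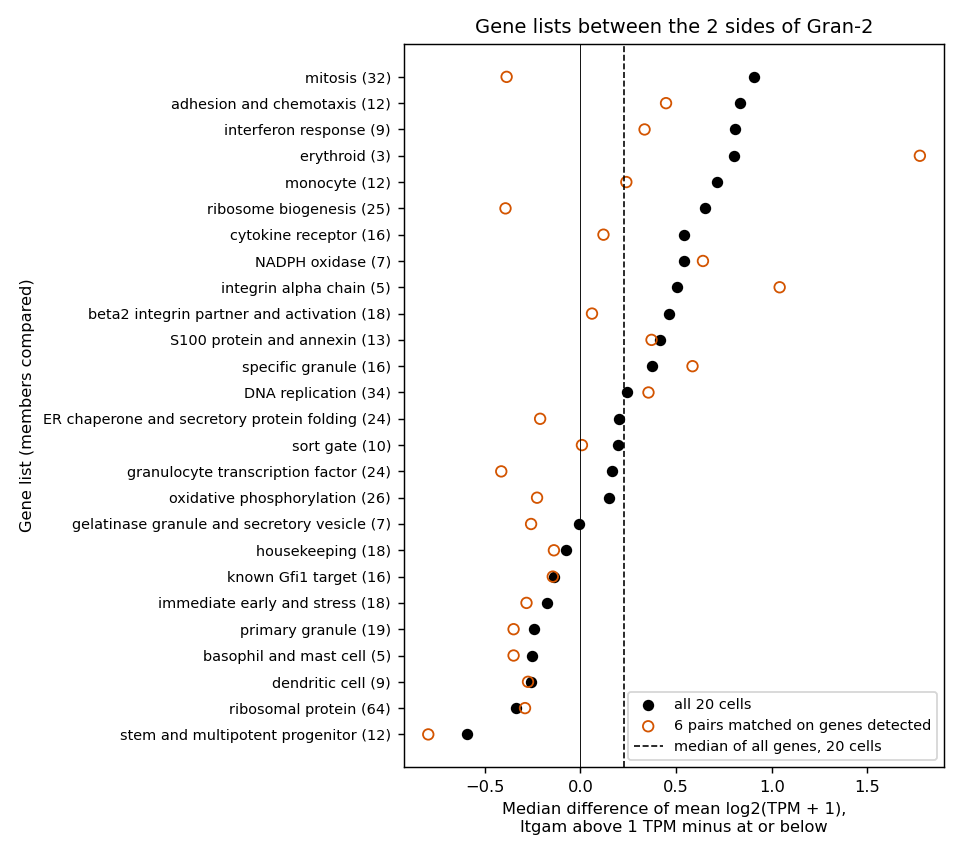
Median difference of each gene list with at least 3 genes compared, Itgam-positive minus Itgam-negative Gran-2 cells, on the log2(TPM + 1) scale; numbers in brackets are genes compared over all 20 cells. Filled points use all 20 cells, open points 6 pairs of cells matched on genes detected, and the dashed line is the median of all genes, 0.23. Mitosis, ribosome biogenesis, ER chaperone, granulocyte transcription factor and oxidative phosphorylation genes change sign in matched cells. Ribosomal protein, stem and multipotent progenitor, primary granule, and gelatinase granule and secretory vesicle genes lie below 0 in both. So do dendritic cell, basophil and mast cell, immediate early and stress, housekeeping and known Gfi1 target genes.

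The genes furthest apart were mostly ones that many cells lacked. The 10 highest were Tor1a (4.77), Chmp1a, an ESCRT subunit (4.45), Psmd14, a proteasome deubiquitinase (4.23), Mrpl28, a mitochondrial ribosomal protein (4.22), Gm6793 (4.18), Dpm2, of dolichol-phosphate mannose synthesis (4.03), Tmem242 (4.02), Sdf2 (3.96), Rbm5, an RNA-binding protein (3.95), and Tmem11 (3.91). Tor1a was above 1 TPM in 11 of 12 Itgam-positive and 2 of 8 Itgam-negative cells, and Tmem11 in 8 of 12 and 0 of 8. The 10 lowest were Cox10, of heme A synthesis (-4.06), Herpud1 (-4.04), Ngdn (-3.93), Acsl5, an acyl-CoA synthetase (-3.72), Gtf3c6 (-3.63), Imp3 and Timm17a, a mitochondrial import subunit (-3.50 each), Nxt1, of RNA export (-3.46), Dpcd (-3.45) and Pex2, of peroxisomes (-3.40). Herpud1 was above 1 TPM in 8 of 8 Itgam-negative cells (45.1 to 1184 TPM) and in 8 of 12 positive cells (0 to 483 TPM).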

How the data were processed

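Per the submitters' processing notes, Bowtie2, RSEM and the mm9 build were used; no source used here names their versions or settings. The deposited table holds log2 values made by the authors, log2(TPM + 1) by the file's totals, for 23956 gene symbols in 92 cells; Ly6g lies outside the TPM total. State names come from the authors' deposited annotation. Per the labels, reads were paired and 150 bp long, from pools of 96 cells; depth per cell is unknown, and 80.6% of values in the 20 cells were 0. Values were analysed in Python 3.11.15 with pandas 2.3.3 and numpy 2.4.6. Fixed shifts added to permuted values of widely detected genes were recovered by the comparison. That check covers its arithmetic only and not missed transcripts or uneven detection. No cell was left out, no doublet caller was run, and the files held 0 columns of other samples and 0 pairs of identical cells.

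The members, the 30 gene lists and the rules were chosen with earlier results of these data known. Named were the 10 highest and 10 lowest genes by difference, where 50% or more of the higher side's cells held the gene, up to 3 members of each list with the largest difference, the 10 genes ranked most like and the 5 most unlike Itgam by Spearman's rank correlation among genes that 50% or more of the 20 cells held, and a fixed set of integrin, granule, factor and gate genes. Not all named genes are printed; Ctsd, Slpi, Rasgrp2, C5ar1, Ltb4r1, Klf5, Ets1, Myc and the lineage markers at 0 are list members named to complete a count. Lists share genes, among them Fcnb, Cybb, Cd177 and Myb. Matched pairs were taken without reuse within 300 genes detected. Alternatives were other thresholds of Itgam (0 and 10 TPM), pseudocounts (0.1 and 10) and detection filters, centring, rescaling, mean TPM, matching, and each cell left out in turn. Leaving out the 2 cells with the fewest genes, or the cell with the highest Itgam, was chosen after seeing the data. Reference tables of a later build served only for the promoter sequence.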

Additional observations from a re-analysis of the deposited data

Results flagged for a closer look

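Of 34 groups of 4 to 10 cells examined, 5 held a cell far from the others by Dixon's criterion, which chance gives in about 1 of 20 groups of normally spread values. For 3 of the 5, Irf8 and the GMP Gran-1 and Multi-Lin cells, every other cell was at 0, so any value above 0 would stand apart and that rate does not apply. Among Itgam-negative Gran-2 cells, Irf8 was 14.48 TPM in cell 57 and 0 in the other 7, and Mmp8, neutrophil collagenase, was 237.79 TPM in cell 87, the next highest being 11.67 TPM in cell 92. In the GMP gate, 1 cell stood apart in Itgam in each of 3 states: 47.67 TPM in Gran-1 cell 12, 13.22 TPM in MP cell 30 and 5.88 TPM in Multi-Lin cell 14. No cause was tested for any of these.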

How the results depend on the processing

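Of 4712 gene and list values over 32 alternatives, 4683 lay within the spread of cells of the value reported and 22 moved further. That spread is the pooled SD over cells, and 20 of the 32 alternatives left out a single cell. Leaving out a single cell can hardly move a mean that far, so the count of 4683 says little about stability. Of all 4712 values 104 had the opposite sign, and for 7 the value reported had been past 2-fold. These 7 were, at an Itgam threshold of 10 TPM, Ceacam1 (-0.65), Fcgr4 (-0.79), Spi1 (0.0057) and Cd48 (0.59); by mean TPM, Cybb (-0.066); in matched cells, Il10rb (-0.65) and Ndufs1 (-0.069). With a pseudocount of 0.1 the counts of genes at least 2-fold higher and lower were 2965 and 1385, and with 10 they were 589 and 271, since the pseudocount sets how far low values spread. The lower count was 1631 by mean TPM, 1779 in matched cells and 1375 without cells 87 and 92; the cause was not tested. Of genes apart, 67.5% were higher in the 20 cells, 53.2% without cells 87 and 92 and 51.3% with cells centred on widely detected genes. The share of GMP Multi-Lin cells with Itgam was 0% above 10 TPM. Leaving out each cell in turn gave 1676 to 2188 genes higher, 837 to 1123 lower, a median of all genes of 0.15 to 0.35, 173.5 to 820.5 for genes detected, 1.04 to 1.36 percentage points for the granule share, and medians of -0.28 to -0.06 for primary, 0.09 to 0.60 for specific and -0.19 to 0.56 for gelatinase granule genes. No other state of the gate had 3 cells on each side, so the same split could not be made elsewhere. No paired analysis was possible because the sides share no cell numbers and no test was made. Unknown depth limits what a value of 0 can show.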
